A study of Mus musculus with 4 samples.

Results

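Transcripts of 9 genes of neutrophil granule proteins were counted in the leukocytes of transplanted mouse lungs: Ltf, Lcn2, Camp, Ngp, Mmp8, Mmp9, Retnlg, Mpo and Elane. They were taken by symbol from the 32285 genes of the count tables, all 9 were found, and they were read in 9633 neutrophils among 23725 cells that passed the filters. A neutrophil was here any cell in which S100a8 and S100a9 together made up at least 1% of the UMIs (unique molecular identifiers, the counted RNA molecules) and which held at least 1 UMI of Csf3r, the receptor of granulocyte colony-stimulating factor. None of the 9 genes was part of that definition.

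Left lungs were grafted between B6 mice after 60 min of storage at 4 °C followed by 45 min at 28 °C. The grafts were taken out 2 h after transplantation, and CD45+ leukocytes (CD45 is a surface protein of all leukocytes) were sorted by origin, recipient or donor. The labels' treatment protocol gives the recipients an injection of resolvin D1 (RvD1, a lipid mediator of the resolution of inflammation) at 200 ng for each mouse, carried in 200 µL with 1% ethanol, or of vehicle, whereas the design text speaks of treatment of the grafts. This gave 4 groups, RvD1 recipient cells, vehicle recipient cells, RvD1 donor cells and vehicle donor cells, each of 1 library made from 2 pooled lungs. Surgery, storage and reperfusion were common to all 4 groups. The sources used here do not tie the donor library of a treatment to the lungs of its recipient library.

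Neutrophils make their granule proteins in an order while they mature in the bone marrow. The azurophil granule proteins (Mpo, myeloperoxidase; Elane, neutrophil elastase) are transcribed first, in promyelocytes, the specific granule proteins (Ltf, lactoferrin; Camp, the cathelicidin antimicrobial peptide; Ngp, neutrophilic granule protein; Lcn2, the siderophore-binding lipocalin) next, in myelocytes and metamyelocytes, and the collagenase Mmp8 and the gelatinase Mmp9 later. Retnlg, a resistin-like secreted protein, is transcribed in mature mouse neutrophils. A circulating neutrophil therefore carries large stores of proteins whose transcripts it has largely stopped making, and the transcript levels given here say nothing of the stored protein.

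Camp, Ngp and Ltf lie on chromosome 9 within 1.2 Mb of each other (GRCm38, GENCODE M21). Camp occupies chr9:109847379-109849617 on the minus strand, Ngp chr9:110419747-110423012 on the plus strand and Ltf chr9:111019271-111042767 on the plus strand. Mmp8 lies on the same chromosome at chr9:7558456-7568485, Lcn2 at chr2:32384633-32388252 and Retnlg at chr16:48872621-48874496. The 250 bases before the RefSeq start site of 5 of the genes are shown (RefSeq, GRCm38.p6). Camp, Ngp and Ltf are shown because they moved together in the same cells of the donor libraries. Mmp8 and Lcn2 are shown because they differed between the donor libraries in monocyte-like cells. The RefSeq starts differ from the GENCODE ones. By the GENCODE positions the Lcn2 window lies inside the gene, and those of Camp, Ngp and Ltf run partly into it. Capitals mark the letters TTGCNNAA on either strand, the kind of letters that C/EBP factors of the granulocyte lineage bind.
Camp, chr9:109849457-109849706, minus strand: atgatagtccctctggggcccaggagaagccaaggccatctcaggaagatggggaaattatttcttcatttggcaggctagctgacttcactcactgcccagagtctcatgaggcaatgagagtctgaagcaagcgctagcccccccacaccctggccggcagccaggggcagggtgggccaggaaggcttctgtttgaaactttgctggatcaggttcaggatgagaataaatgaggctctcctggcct
Ngp, chr9:110419558-110419807, plus strand: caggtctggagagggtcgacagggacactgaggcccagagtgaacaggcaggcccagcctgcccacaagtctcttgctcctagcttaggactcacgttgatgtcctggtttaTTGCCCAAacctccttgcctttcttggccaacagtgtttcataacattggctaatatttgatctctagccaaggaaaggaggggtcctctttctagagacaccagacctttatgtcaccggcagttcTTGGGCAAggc
Ltf, chr9:111019042-111019291, plus strand: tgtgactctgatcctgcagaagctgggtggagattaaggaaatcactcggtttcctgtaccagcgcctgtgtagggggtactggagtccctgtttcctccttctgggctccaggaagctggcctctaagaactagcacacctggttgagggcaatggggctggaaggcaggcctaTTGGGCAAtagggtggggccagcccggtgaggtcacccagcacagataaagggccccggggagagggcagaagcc
Mmp8, chr9:7558179-7558428, plus strand: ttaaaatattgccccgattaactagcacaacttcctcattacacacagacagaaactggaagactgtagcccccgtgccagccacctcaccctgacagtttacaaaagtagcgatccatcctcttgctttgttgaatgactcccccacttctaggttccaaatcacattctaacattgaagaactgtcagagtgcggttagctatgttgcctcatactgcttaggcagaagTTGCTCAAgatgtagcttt
Lcn2, chr2:32387740-32387989, minus strand: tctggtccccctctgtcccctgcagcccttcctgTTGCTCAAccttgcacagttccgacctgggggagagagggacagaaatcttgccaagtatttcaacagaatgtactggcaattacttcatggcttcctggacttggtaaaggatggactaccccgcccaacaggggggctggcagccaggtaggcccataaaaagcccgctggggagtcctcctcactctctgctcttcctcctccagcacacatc

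RefSeq held such a window for 8 of the 9 genes (not Mmp9). The letters TTGCNNAA, searched on both strands, were in 5 of those 8 (Ltf, Lcn2, Ngp, Mmp8 and Retnlg) and in 9.56% of the 32851 windows of the same length in the table. In Ngp they occurred 138 and 11 bases before the RefSeq start, in Mmp8 19, in Ltf 75 and in Lcn2 216 bases before it. The letters AGGAAGT, of the kind bound by PU.1 and other ETS factors, were in 3 of the 8 (Mmp8, Mpo and Elane) and in 7.69% of all windows; Mmp8 held both, without overlap. The Camp window held neither, which says only that these letters are not in those 250 bases.

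The neutrophils numbered 2971 in RvD1 recipient, 3335 in vehicle recipient, 1896 in RvD1 donor and 1431 in vehicle donor cells, with a median of 4931, 5444, 5178.5 and 5483 UMIs per cell in the same order. Between 90.6% and 97.9% of them fell in clusters named neutrophil from 9 markers, in clusters that were made without the 9 genes. A further 1.51%, 2.55%, 3.27% and 8.74%, in the same order, fell in clusters of nonclassical monocyte-like cells, and ratios within neutrophil clusters are given below beside the pooled ones. All 9 neutrophil markers were detected in the gated cells of every library, and their summed level was 120799, 115843, 104640 and 69727 CPM (counts per 1000000 UMIs, here UMIs of a gene over all UMIs of the cells of a class). S100a8, S100a9 and Csf3r, which made the gate, are among these markers. Their detection and much of the sum were therefore set by the gate and do not check it. Each pair of libraries shared between 4 and 15 cell barcodes. Since each group is 1 library, nothing below has a replicate check: ratios compare libraries and not conditions, intervals are 95% intervals of counting error only, and no p-value is given. Cell Ranger was version 7.0.1 for the RvD1 libraries and 6.1.1 for the vehicle libraries, so that version and treatment cannot be told apart, whereas recipient and donor cells of a treatment were processed alike in this respect.

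Over all neutrophils, transcripts of 7 of the 9 genes were plainly present and those of Mpo and Elane were nearly absent. Retnlg, Lcn2, Mmp8 and Mmp9 were spread over large shares of the neutrophils of every library. Camp, Ngp and Ltf, in contrast, came almost entirely from a few cells in the donor libraries. The share of each gene's UMIs that lay in gated neutrophils was between 95.9% and 99.1% for Retnlg and between 89.1% and 97.4% for Mmp9, over the 4 libraries.

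**Figure D1:**
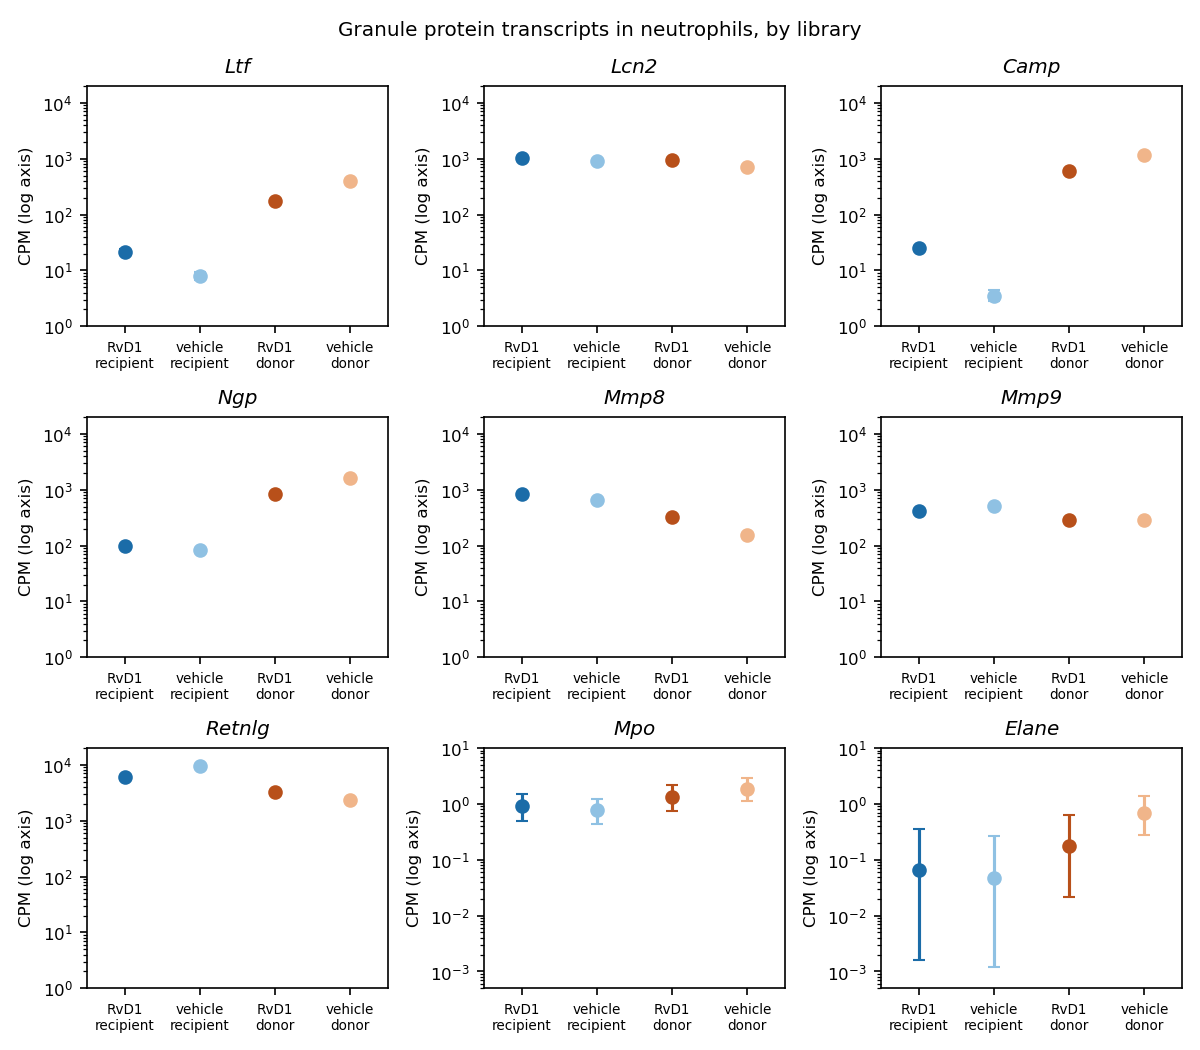
Level of each of the 9 genes in the neutrophils of each library, in CPM on a log axis; bars are 95% Poisson intervals of counting error, and the axis of Mpo and Elane differs from that of the others. Camp, Ltf and Ngp are lowest in the recipient libraries, Retnlg and Mmp8 in the donor libraries, and Mpo and Elane lie at or below 1.84 CPM in all 4.

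Over all neutrophils the azurophil genes were at the edge of detection. Mpo had 14 UMIs in RvD1 recipient, 16 in vehicle recipient, 15 in RvD1 donor and 19 in vehicle donor neutrophils, or 0.899, 0.768, 1.34 and 1.84 CPM. Part of these Mpo UMIs lay in a small neutrophil cluster led by Cc2d2b, with 26, 39, 23 and 27 gated cells in the same order. It held 8, 11, 14 and 8 of them, or 69.2, 49.6, 129 and 52.7 CPM, and no Elane UMI. Elane had 1, 1, 2 and 7 UMIs over all neutrophils of the same libraries. No ratio is given for either gene, since both fell short of the 100 UMIs over 2 libraries asked of a described gene. In the donor libraries most azurophil transcripts lay outside the neutrophil gate: 39.5% of the Mpo UMIs of RvD1 donor and 15.7% of those of vehicle donor cells were in gated neutrophils. In recipient cells 14 of 18 Mpo UMIs with RvD1 and 16 of 16 with vehicle were in them. A single vehicle donor cell of 48845 UMIs, in a cluster led by cell cycle genes, held 94 of that library's 189 Elane UMIs and 45 of its 121 Mpo UMIs. The same cell had 93 UMIs of Prtn3 (proteinase 3, a further azurophil protease), 22 of Mki67 and 45 of Top2a, both proliferation genes, and none of Ltf, Camp, Ngp or Csf3r. In the classical monocyte-like cluster a single RvD1 donor cell held 22 of that library's 32 Elane UMIs, and a single vehicle donor cell held 75 of the 189. In both recipient libraries together only 3 Elane UMIs were counted.

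Camp, Ngp and Ltf, called the trio below, were far lower in recipient than in donor neutrophils. Camp stood at 25.2 CPM in RvD1 recipient and 3.55 CPM in vehicle recipient neutrophils, against 593 CPM in RvD1 donor and 1164 CPM in vehicle donor neutrophils. Ltf stood at 21.6 CPM in RvD1 recipient and 7.97 CPM in vehicle recipient neutrophils, against 178 CPM in RvD1 donor and 398 CPM in vehicle donor neutrophils. Ngp stood at 99.3 CPM in RvD1 recipient and 84.1 CPM in vehicle recipient neutrophils, against 845 CPM in RvD1 donor and 1646 CPM in vehicle donor neutrophils. The log2 ratio of recipient over donor cells was -4.56 for Camp, -3.04 for Ltf and -3.09 for Ngp with RvD1, and -8.36, -5.64 and -4.29 with vehicle. Within donor cells the 3 genes were lower with RvD1 than with vehicle, by log2 ratios between -1.16 for Ltf and -0.96 for Ngp. Within recipient cells they were higher with RvD1, by 2.83 for Camp (interval 2.46 to 3.20), 1.44 for Ltf (1.16 to 1.71) and 0.24 for Ngp (0.14 to 0.34).

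Within clusters, Camp and Ltf could be compared between RvD1 and vehicle in 1 cluster, the one led by the granule genes themselves. There the log2 ratio of RvD1 over vehicle was 2.65 for Camp and 3.21 for Ltf in recipient cells, and -1.81 for Camp and -2.03 for Ltf in donor cells. For Ngp it was positive in 2 of 4 clusters of recipient cells (-2.48 to 0.14) and in 0 of 2 of donor cells (-1.93 to -1.14).

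The summed levels of the trio rest on very few cells. Neutrophils with at least 100 UMIs of Camp, Ltf and Ngp together, a limit chosen after the values had been seen, numbered 3 of 2971 in RvD1 recipient cells (0.101%, exact interval 0.0208% to 0.295%) and 0 of 3335 in vehicle recipient cells, where the 3 counts that a count of 0 allows come to 0.0900% and the exact upper limit is 0.111%. In donor cells they numbered 13 of 1896 with RvD1 (0.686%, 0.366% to 1.17%) and 22 of 1431 with vehicle (1.54%, 0.966% to 2.32%). Of these, 2 RvD1 recipient, 13 RvD1 donor and 17 vehicle donor cells held 300 or more UMIs of the 3 genes, and 1, 0 and 5 cells of the same libraries held fewer than 300. Just under the limit, 30 to 99 such UMIs were found in 1 RvD1 recipient, 7 vehicle recipient, 5 RvD1 donor and 5 vehicle donor cells. These 38 granule-rich cells held 95.2% of the neutrophils' Camp UMIs in RvD1 recipient, 99.1% in RvD1 donor and 99.3% in vehicle donor cells. They held 60.7%, 93.9% and 96.7% of the Ltf and 53.2%, 93.9% and 97.2% of the Ngp in the same libraries. In the cluster led by the granule genes, 3 of 987 RvD1 recipient, 12 of 334 RvD1 donor and 16 of 91 vehicle donor neutrophils were granule-rich. Ratios within that cluster, above and below, were not recomputed without them. The intervals of the ratios above treat every UMI as a separate draw and are much too narrow for genes held by so few cells.

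**Figure D2:**
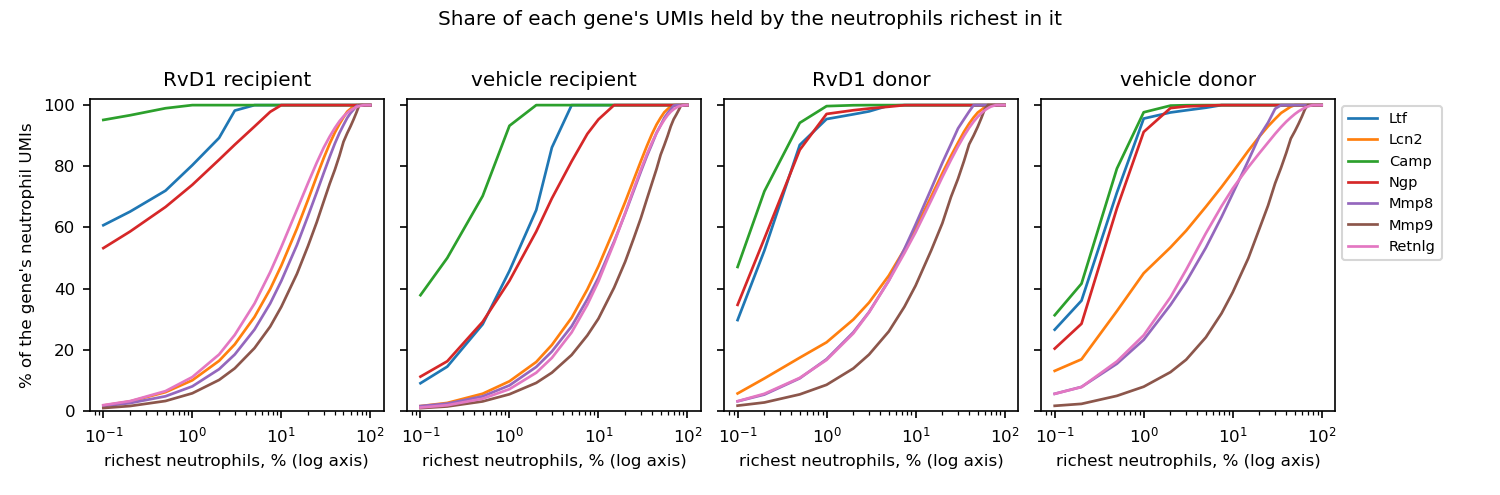
Cumulative share of a gene's neutrophil UMIs (vertical axis, %) held by the neutrophils richest in it (horizontal axis, % of neutrophils, log axis), 1 panel per library. In both donor libraries the richest 1% hold over 91% of Camp, Ltf and Ngp, whereas Mmp9, Retnlg and Mmp8 climb slowly in every library.

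The richest 1% of neutrophils, chosen for each gene apart, held 99.7% of the Camp UMIs of RvD1 donor cells and 97.7% of those of vehicle donor cells. For Ngp that share was 97.1% in RvD1 donor and 91.2% in vehicle donor cells, and for Ltf it was 95.4% in RvD1 donor and 95.6% in vehicle donor cells. Mmp9 was the most evenly spread member, at 5.75% in RvD1 recipient, 5.43% in vehicle recipient, 8.52% in RvD1 donor and 7.90% in vehicle donor cells. Retnlg and Mmp8 lay between 7.10% and 24.7% in every library. Lcn2 was in between: its richest 1% held 10.0% in RvD1 recipient, 9.67% in vehicle recipient and 22.4% in RvD1 donor cells, but 45.0% in vehicle donor cells.

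The granule-rich donor cells differed from the other neutrophils in genes that had no part in choosing them. They were richer in RNA, with a median of 12338 UMIs in the RvD1 donor and 17829.5 in the vehicle donor library, against 5169 and 5458 UMIs in the other neutrophils of the 2 libraries. Chil3, a chitinase-like protein of immature neutrophils and macrophages, stood at 7408 CPM in the 13 RvD1 donor cells, against 45.3 CPM in the other RvD1 donor neutrophils, and at 5428 CPM in the 22 vehicle donor cells, against 18.5 CPM in the others. The granulopoietic transcription factor Cebpe stood at 107 and 125 CPM in the granule-rich cells of RvD1 donor and vehicle donor libraries, against 3.73 and 5.18 CPM in the others. Fcnb, a ficolin of immature granulocytes, was found in 4 of the 13 and 10 of the 22 cells. Of the 11 genes of the list of immature neutrophils, 10 stood higher in the granule-rich cells of RvD1 donor and 11 in those of vehicle donor libraries, although Cd24a was nearly level, at 304 CPM in both kinds of RvD1 donor cells and at 362 CPM against 342 CPM in vehicle donor cells. In the 3 RvD1 recipient cells 6 of the 11 genes, among them Cebpe and Fcnb, had no UMI, and Chil3 stood at 3260 CPM against 9.72 CPM in the other neutrophils.

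Of the 11 genes of the list of mature or aged neutrophils, all 11 stood lower in the granule-rich cells of both donor libraries. Csf3r, which took part in the gate, is among them, and Itgam, an integrin subunit, was nearly level, at 916 CPM against 987 CPM in RvD1 donor and 887 CPM against 926 CPM in vehicle donor cells. The genes named from these lists for the granule-rich cells were picked after their values had been seen. Cxcr2, the chemokine receptor with which mature neutrophils leave the marrow, stood at 241 CPM in granule-rich RvD1 donor cells, against 1052 CPM in the others, and at 219 CPM in granule-rich vehicle donor cells, against 784 CPM in the others. Il1b stood at 308 and 449 CPM, against 6885 and 4878 CPM, in the same order. In the 3 RvD1 recipient cells Cxcr2 stood nearer to the others, at 767 CPM against 1211 CPM. Mki67 was detected in 4 of the 13 RvD1 donor and 8 of the 22 vehicle donor cells, and in 0 of the 3 RvD1 recipient cells. Mpo had no UMI in any of the 38 cells, but every Elane UMI of the gated donor neutrophils lay in them, 2 UMIs in 1 RvD1 donor cell and 7 UMIs in 2 vehicle donor cells, and so did 11 and 4 UMIs of Prtn3. Retnlg, although a gene of mature neutrophils, stood higher in the granule-rich cells, at 34742 CPM against 5994 CPM in RvD1 recipient, 9209 CPM against 3125 CPM in RvD1 donor and 9808 CPM against 1997 CPM in vehicle donor cells.

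Without the granule-rich cells the picture of the trio changed. Camp stood at 1.22 CPM in RvD1 recipient and 3.55 CPM in vehicle recipient neutrophils, against 5.36 CPM in RvD1 donor and 8.22 CPM in vehicle donor neutrophils. The B cells of the same libraries, which should lack Camp, held 0.877, 1.36, 1.03 and 4.59 CPM in the same order. The low levels in neutrophils are to be read beside these, and whether the Camp of B cells is free RNA was not tested. Ltf stood at 8.50 CPM in RvD1 recipient and 7.97 CPM in vehicle recipient, against 11.1 CPM in RvD1 donor and 13.9 CPM in vehicle donor neutrophils, and at no more than 0.581 CPM in the B cells of any library. Ngp turned round: it stood at 46.5 CPM in RvD1 recipient and 84.1 CPM in vehicle recipient, against 52.5 CPM in RvD1 donor and 49.0 CPM in vehicle donor neutrophils. Its log2 ratio of recipient over donor cells with vehicle was then 0.78, in place of -4.29, and that of RvD1 over vehicle was 0.10 in donor cells, in place of -0.96, and -0.85 in recipient cells, in place of 0.24. The ratio of Ltf between RvD1 and vehicle recipient cells was then 0.09, in place of 1.44. Camp had 19 UMIs left in RvD1 recipient and 74 in vehicle recipient cells, which is under the minimum for a ratio. The direction for Ngp between RvD1 and vehicle recipient cells thus turned with 3 cells.

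**Figure D3:**
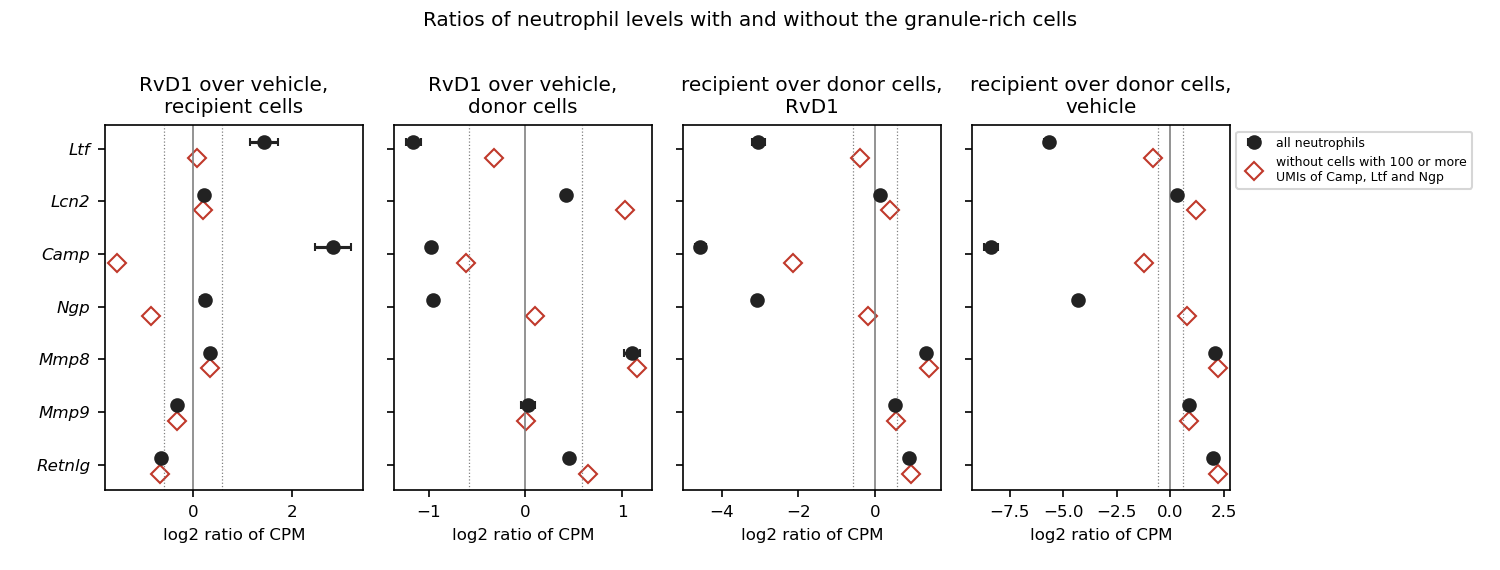
Log2 ratio of CPM for 7 genes in 4 comparisons of neutrophils, over all neutrophils (filled, with 95% counting intervals) and without cells holding 100 or more UMIs of Camp, Ltf and Ngp (open); dotted lines mark 1.5-fold, and each panel has its own axis. The open points of Camp in the first and the third panel rest on 93 and 78 UMIs, under the minimum of 100. Camp, Ltf and Ngp move towards 0 or cross it, while Mmp8, Mmp9 and Retnlg keep their side.

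Lcn2, whose product starves bacteria of iron, was the specific granule gene found throughout. It stood at 1040 CPM in RvD1 recipient and 891 CPM in vehicle recipient neutrophils, and at 951 CPM in RvD1 donor and 709 CPM in vehicle donor neutrophils. After each cell was thinned to 1000 UMIs, 42.6% of RvD1 recipient, 39.6% of vehicle recipient, 35.5% of RvD1 donor and 22.6% of vehicle donor neutrophils had a UMI of it; unthinned, the donor shares were 63.7% with RvD1 and 47.6% with vehicle. At most 2.55% of lymphoid cells in any class and library had one, unthinned. All 4 log2 ratios were under 1.5-fold, between 0.13 and 0.42. Granule-rich cells held 1.75% of the Lcn2 of RvD1 recipient, 19.2% of RvD1 donor and 48.3% of vehicle donor neutrophils. Without them Lcn2 was at 784 CPM in RvD1 donor and 385 CPM in vehicle donor neutrophils, a log2 ratio of 1.02, and the ratio of recipient over donor cells with vehicle was 1.21. Within clusters the ratios went further than over all neutrophils. Between the donor libraries Lcn2 was higher with RvD1 in 7 of 8 clusters, by up to 1.67, but stood at -0.92 in the cluster led by the granule genes. Recipient over donor with vehicle it was higher in 7 of 8 clusters, by up to 1.75, and stood at -1.34 in that cluster. Neither ratio in that cluster was recomputed without its granule-rich cells. Between the recipient libraries 4 of 7 clusters were positive (-1.16 to 0.27), as were 4 of 7 for recipient over donor cells with RvD1 (-0.67 to 0.68).

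Mmp8, a collagenase, was higher in recipient than in donor neutrophils under both treatments, and higher with RvD1 in donor cells. It stood at 835 CPM in RvD1 recipient and 653 CPM in vehicle recipient neutrophils, against 331 CPM in RvD1 donor and 154 CPM in vehicle donor neutrophils. The log2 ratio of recipient over donor cells was 1.33 (1.28 to 1.39) with RvD1 and 2.08 (2.01 to 2.16) with vehicle. That of RvD1 over vehicle was 1.10 (1.02 to 1.19) between the donor libraries, and between the recipient libraries it was 0.35 (0.32 to 0.39). Thinned to 1000 UMIs, 41.8% of RvD1 recipient, 36.8% of vehicle recipient, 18.6% of RvD1 donor and 10.6% of vehicle donor neutrophils had a UMI of Mmp8.

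The excess of Mmp8 in recipient cells was present inside the neutrophil clusters. It was higher in recipient than in donor cells in 6 of 6 clusters compared with RvD1 and in 8 of 8 with vehicle. The ratio of RvD1 over vehicle in donor cells was positive in 6 of 7 clusters and -0.06 (-0.37 to 0.25) in the remaining one. Among the 6 it was only 0.02 (-0.12 to 0.16) in the cluster led by the granule genes themselves. That cluster, found without the 9 genes, held 33.2% of RvD1 recipient, 23.2% of vehicle recipient, 17.6% of RvD1 donor and 6.36% of vehicle donor neutrophils, and within it Mmp8 stood at 1234, 1179, 792 and 783 CPM in the same order. Its share of the neutrophils thus moved with the level of Mmp8.

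Retnlg was the most abundant member in every library, and it was lower with RvD1 in recipient cells and higher in donor cells. It stood at 6051 CPM in RvD1 recipient and 9453 CPM in vehicle recipient neutrophils, against 3246 CPM in RvD1 donor and 2370 CPM in vehicle donor neutrophils. The log2 ratio of RvD1 over vehicle was -0.64 (-0.65 to -0.63) in recipient cells and 0.45 (0.43 to 0.48) in donor cells. No test was made of the difference between donor and recipient cells. Recipient over donor it was 0.90 with RvD1 and 2.00 with vehicle. The median neutrophil held 8 UMIs of Retnlg in RvD1 recipient, 25 in vehicle recipient, 5 in RvD1 donor and 3 in vehicle donor cells, and the quartiles were 2 and 37, 6 and 83, 1 and 19, and 1 and 11 UMIs in the same order.

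Within clusters the lower Retnlg of RvD1 recipient cells was seen in 7 of 7 compared, with log2 ratios from -1.95 to -0.74, which is lower than the -0.64 over all neutrophils in every cluster. In donor cells 6 of 8 clusters had a positive ratio, over a range from -0.83 to 0.92. In the cluster led by the granule genes Retnlg stood at 10685 CPM in RvD1 recipient and 19267 CPM in vehicle recipient cells, and at 8119 CPM in RvD1 donor and 14407 CPM in vehicle donor cells, so that there the donor cells too had less of it with RvD1. Of those donor cells, 12 of 334 with RvD1 and 16 of 91 with vehicle were granule-rich, and these levels include them. Retnlg also gave the widest background outside neutrophils, between 2.05 and 33.5 CPM in lymphoid classes, and at most 14.1% of the cells of a lymphoid class in a library had a UMI of it.

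Mmp9, the gelatinase, was higher in recipient than in donor neutrophils and close to equal between the donor libraries. It stood at 418 CPM in RvD1 recipient and 520 CPM in vehicle recipient neutrophils, against 293 CPM in RvD1 donor and 288 CPM in vehicle donor neutrophils. RvD1 over vehicle the log2 ratio was -0.31 (-0.36 to -0.27) in recipient cells and 0.02 (-0.05 to 0.10) in donor cells. Recipient over donor it was 0.51 with RvD1 and 0.85 with vehicle. Within clusters Mmp9 was lower with RvD1 in 7 of 7 clusters of recipient cells, by log2 ratios from -1.32 to -0.40, and in 6 of 7 clusters of donor cells, although the ratio over all donor neutrophils was near 0.

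The members with enough UMIs for a ratio were counted beside all genes with at least 100 UMIs over the 2 libraries compared. In recipient cells 2 of 7 (Ltf and Camp) were at least 1.5-fold higher with RvD1, where 7.60% of 8385 described genes were, and 1 (Retnlg) was at least 1.5-fold lower, where 14.6% were. In donor cells 1 (Mmp8) was higher with RvD1, against 5.68% of 7820 genes, and 3 (Ltf, Camp and Ngp) were lower, against 18.8%. Recipient over donor cells, 2 (Mmp8 and Retnlg) were higher with RvD1, against 3.90% of 7766 genes, and 3 (Ltf, Camp and Ngp) were lower, against 15.7%. With vehicle 3 (Mmp8, Mmp9 and Retnlg) were higher, against 3.29% of 8394 genes, and 3 (Ltf, Camp and Ngp) were lower, against 24.3%. The median log2 ratio of the 7 members was 0.24, 0.02, 0.13 and 0.33 in these 4 comparisons, and that of all described genes was 0.02, -0.10, -0.14 and -0.28. The 4 comparisons share libraries with each other. The genes at least 1.5-fold higher and lower numbered 444 and 1467 in donor cells, 303 and 1219 for recipient over donor cells with RvD1 and 276 and 2037 with vehicle; scaled by the median ratio of all genes, they numbered 661 and 1194, 513 and 796, and 738 and 893.

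Co-detection was counted among neutrophils thinned to 1000 UMIs, which left out 19 RvD1 recipient, 0 vehicle recipient, 7 RvD1 donor and 4 vehicle donor cells, and is given as the observed number of cells over the number expected from the 2 shares. Camp and Ngp were found together in 4 RvD1 recipient cells, where 0.260 were expected, and in 3 vehicle recipient cells, where 0.326 were expected. In RvD1 donor cells they met in 16 cells, where 0.540 were expected, and in vehicle donor cells in 25, where 1.16 were expected. Ltf met Camp in 3 RvD1 recipient, 14 RvD1 donor and 17 vehicle donor cells and in 0 vehicle recipient cells, where 0.0840 were expected. Cells with Ngp also had Mmp8 more often than expected in every library, by 1.80 to 3.61 times, and Lcn2 by 1.61 to 2.66 times. Mmp8 with Retnlg reached 1.14 to 1.41 times and Mmp9 with Retnlg 1.04 to 1.17 times. These counts describe cells of 1 library each, and the part of monocyte-like cells inside the gate was not tested.

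The genes most like each member were read from correlations within each library (log of 1 plus the UMIs of thinned neutrophils), averaged over the 4 libraries. Only genes with a UMI in at least 2% of the thinned neutrophils of every library could be matched to a member, which left out Camp (0.240% to 2.10%) and Ltf (0.779% to 2.31%) as matches for the others. Camp was most like Ngp, with a mean r of 0.64 and r of 0.59 in RvD1 recipient, 0.18 in vehicle recipient and 0.89 in both donor libraries. For Ltf no gene reached an r of 0.1 in all 4 libraries: Ngp stood at 0.40 in RvD1 recipient, 0.02 in vehicle recipient, 0.83 in RvD1 donor and 0.79 in vehicle donor cells. Camp, too rare to be a match under that rule, had a higher r with Ltf than Ngp had, at 0.68, 0.05, 0.90 and 0.85 in the same order. Among the genes that could be matched, Ngp was most like Cd177 (a neutrophil surface glycoprotein; mean r 0.31), Lcn2 (0.27) and Ifitm6 (0.25). Retnlg was most like S100a9 (0.49), S100a8 (0.47) and Mmp8 (0.34), and Lcn2 like S100a9 (0.28), Retnlg and Ngp (both 0.27). Mmp8 was most like Retnlg (0.34), S100a9 and S100a8 (both 0.25), and Mmp9 like Retnlg alone (0.15). S100a8 and S100a9, the calprotectin subunits, took part in the gate, and all points share library and depth. No gene passed for Mpo, and Elane could not be correlated in all 4 libraries.

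Other granule genes were read from lists that hold none of the 9 genes, with 1.5-fold as the limit for higher and lower. Of all described genes, 7.60% were higher and 14.6% lower with RvD1 in recipient cells, and 5.68% and 18.8% in donor cells. Recipient over donor, the shares were 3.90% and 15.7% with RvD1, and 3.29% and 24.3% with vehicle. The counts of the lists here and below were not tested against these shares. Of the specific granule list 2 of 11 measured genes were higher and 1 lower with RvD1 in recipient cells, and 0 of 12 higher and 1 lower in donor cells. Recipient over donor, 1 of 12 was higher and 3 lower with RvD1, and 1 of 11 higher and 2 lower with vehicle. Chil3 stood at 16.3 CPM in RvD1 recipient and 7.44 CPM in vehicle recipient neutrophils. In RvD1 donor and vehicle donor neutrophils it stood at 192 CPM and 277 CPM, the pattern of the trio over all neutrophils. Without the granule-rich cells, as given above, the donor levels of Chil3 were far lower, and higher with RvD1 than with vehicle. Hp (haptoglobin, which binds free haemoglobin) followed Mmp8 instead, at 1297 CPM in RvD1 recipient, 945 CPM in vehicle recipient, 739 CPM in RvD1 donor and 496 CPM in vehicle donor neutrophils. Cybb, the catalytic subunit of the phagocyte oxidase, was lower with RvD1 in donor cells, at 139 CPM against 260 CPM with vehicle, and stood at 84.1 CPM in RvD1 recipient and 115 CPM in vehicle recipient cells.

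Of the azurophil list 7 of 13 genes were measured. Hexa and Gusb, lysosomal hydrolases, were lower with RvD1 in both origins: Hexa stood at 40.7 CPM in RvD1 recipient against 127.8 CPM in vehicle recipient neutrophils and at 58.8 CPM in RvD1 donor against 166 CPM in vehicle donor neutrophils. They were the 2 lower genes of that list in each comparison of RvD1 with vehicle, where none was higher. Ctsc, the cathepsin that activates the granule serine proteases, was lower in recipient than in donor cells, at 20.4 CPM against 49.9 CPM with RvD1 and at 20.1 CPM against 38.0 CPM with vehicle. None of the gelatinase granule genes passed 1.5-fold between RvD1 and vehicle, of 7 measured in recipient and 8 in donor cells. Of the secretory vesicle genes Fpr1, a receptor for bacterial formyl peptides, was higher with RvD1 in donor cells, at 396 CPM against 221 CPM, and Tlr4 was lower in both origins, at 326 CPM against 546 CPM in recipient and 460 CPM against 703 CPM in donor cells.

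Genes of granule release and sorting were mostly within 1.5-fold, as most described genes were. None of the exocytosis genes passed 1.5-fold between RvD1 and vehicle in the 10 measured in donor cells, and in recipient cells 1 was higher (Vamp2, a vesicle fusion protein, at 29.5 CPM with RvD1 against 18.8 CPM with vehicle) and 1 was lower (Rab27a, a GTPase that docks granules, at 83.4 CPM against 126 CPM). The medians of that list were nevertheless 0.30 and 0.36 in recipient and donor cells, where those of all genes were 0.02 and -0.10. None of the 4 measured genes of granule sorting, which include the proteoglycan Srgn, passed in any comparison. Among transcription factors of granulopoiesis 0 were higher in any comparison, and 1 of 8 was lower with RvD1 in recipient and 3 of 8 in donor cells. Cebpe stood at 2.38 CPM in RvD1 recipient and 3.79 CPM in vehicle recipient, against 5.79 CPM in RvD1 donor and 10.9 CPM in vehicle donor neutrophils, and Runx1 at 683, 1000, 842 and 1443 CPM in the same order. These levels include the granule-rich cells, in which Cebpe stood higher in both donor libraries.

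Inhibitors of the granule proteases went both ways. With RvD1, 2 of 8 measured were higher and 2 lower in recipient cells, and 3 higher and 1 lower in donor cells. Stfa2, a stefin that inhibits cysteine cathepsins, was higher with RvD1 in both, at 22.0 CPM against 12.2 CPM in recipient and 27.6 CPM against 17.8 CPM in donor cells. Cstb (cystatin B) was lower in both, at 250 CPM against 496 CPM in recipient and 347 CPM against 642 CPM in donor cells. Of the receptors that bind released granule proteins, 1 of 4 measured was lower in recipient and 3 of 5 in donor cells with RvD1, among them Tlr4 in both.

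Genes of immature neutrophils were mostly lower in recipient than in donor cells, as the trio was. Between RvD1 and vehicle the median log2 ratio of this list was -0.46 in recipient and -0.90 in donor cells. The medians of all genes were 0.02 and -0.10. In recipient cells the trio went the other way over all neutrophils, although Ngp turned without the 3 granule-rich cells. The part of the immature genes in the trio's ratios was not tested. Of the genes of immature neutrophils, 1 of 9 measured was higher and 3 were lower with RvD1 in recipient cells, and 0 of 11 were higher and 6 lower in donor cells. Recipient over donor, 0 of 10 were higher and 7 lower with RvD1, and 1 of 11 was higher and 8 lower with vehicle. The medians were -0.92 and -1.53, where those of all genes were -0.14 and -0.28. All counts and medians of this list include the granule-rich cells and were not recomputed without them. Mki67 stood at 6.42 CPM in RvD1 recipient and 14.5 CPM in vehicle recipient, against 13.7 CPM in RvD1 donor and 26.6 CPM in vehicle donor neutrophils. Of 11 genes of mature or aged neutrophils, 2 were higher with RvD1 in recipient and 1 in donor cells, and none was lower in any of the 4 comparisons. Cd101, a surface protein of mature neutrophils, stood at 126 CPM in RvD1 recipient and 163 CPM in vehicle recipient, against 83.0 CPM in RvD1 donor and 81.8 CPM in vehicle donor neutrophils.

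**Figure D4:**
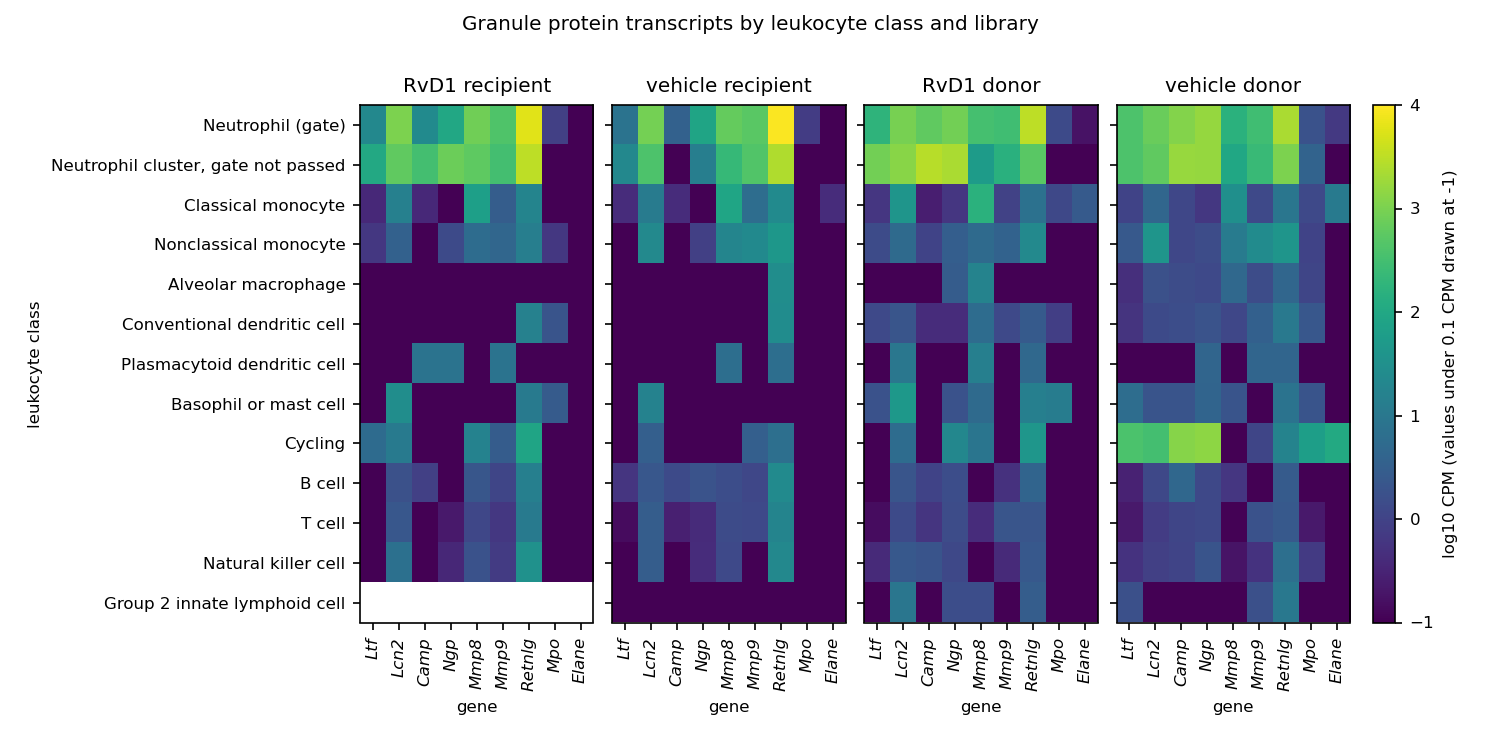
Level of the 9 genes (columns) in each leukocyte class (rows) of each library, as log10 CPM; values under 0.1 CPM are drawn at -1 and a class with no cell is blank. Class names stand for cells like that type, named from markers. Mmp8 and Lcn2 reach into the classical monocyte row, and Camp, Mpo and Elane into the cycling row of vehicle donor cells.

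Levels outside neutrophils were read over the 28 combinations of another leukocyte class and a library with at least 50 cells. The cycling cluster and the unnamed cells were left out. In the cycling cluster Camp stood at 1218 CPM in vehicle donor cells, with 1036 of its 1075 UMIs in 1 cell. Over the 28 combinations Mmp8 reached the highest level of the 9 genes, in classical monocyte-like cells. The highest level was 6.05 CPM for Ltf, 4.59 for Camp, 4.03 for Ngp and 25.5 for Mmp9. Retnlg reached 45.1 CPM, in nonclassical monocyte-like cells of the vehicle recipient library. Mpo reached 12.6 CPM in basophil-like or mast cell-like cells of the RvD1 donor library and Elane 11.04 CPM in classical monocyte-like cells of the vehicle donor library, both above their neutrophil levels. Lcn2 reached 46.8 CPM in basophil-like or mast cell-like cells of the RvD1 donor library, from 26 UMIs in 9 of 84 cells, against 1 UMI in 69 such cells of the vehicle donor library. The cells of neutrophil clusters that missed the gate, 128 in RvD1 recipient, 116 in vehicle recipient, 109 in RvD1 donor and 116 in vehicle donor cells, held more Camp per UMI than the gated cells in RvD1 recipient (317 CPM), RvD1 donor (2928 CPM) and vehicle donor cells (1697 CPM), and none in vehicle recipient cells. A single granule-rich cell with no Csf3r UMI lay among them in the RvD1 recipient and in the RvD1 donor library, and 2 in the vehicle donor library, which had a further 1 in the cycling cluster.

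Mmp8 was higher with RvD1 in the classical monocyte-like cells of donor origin. These cells, marked by Vcan, F13a1, Fn1 and Ccr2 and all of 1 cluster, numbered 228 in RvD1 recipient, 156 in vehicle recipient, 719 in RvD1 donor and 515 in vehicle donor cells. Mmp8 stood at 65.0 CPM in RvD1 recipient and 86.3 CPM in vehicle recipient, against 159 CPM in RvD1 donor and 31.6 CPM in vehicle donor cells. The log2 ratio of RvD1 over vehicle was -0.41 (-0.71 to -0.11) for recipient cells and 2.33 (2.14 to 2.53) for donor cells, a difference that was not tested. The signal was spread over many cells: 60.1% of the RvD1 donor cells had a UMI of Mmp8, against 26.0% of the vehicle donor cells, at median depths of 15407 and 15010 UMIs, and the richest cell held 1.82% of the RvD1 donor UMIs. Thinned to 1000 UMIs, the shares were 13.1% (10.7% to 15.8%) and 3.33% (1.95% to 5.28%).

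Lcn2 was likewise higher with RvD1 in those cells of donor origin, but in those of recipient origin it was not lower with RvD1 as Mmp8 was. It stood at 14.9 CPM in RvD1 recipient and 11.9 CPM in vehicle recipient, against 41.0 CPM in RvD1 donor and 4.44 CPM in vehicle donor cells, and the log2 ratio in donor cells was 3.21 (2.71 to 3.75). A UMI of it was found in 22.5% of the RvD1 donor and 4.27% of the vehicle donor cells, unthinned. Mmp8 and Lcn2 met in 6 of the 716 RvD1 donor cells thinned to 1000 UMIs, where 2.89 were expected.

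The summed neutrophil markers were close between the donor libraries, where these 2 genes differed. S100a8, S100a9 and Csf3r are part of that sum, and cells passing the gate on them were kept out of this class. The sum is thus limited by the gate, and the part of neutrophil RNA in Mmp8 and Lcn2 here was not tested. The summed level of the 9 neutrophil markers in the same cells was 1560 CPM in RvD1 recipient, 1804 CPM in vehicle recipient, 1504 CPM in RvD1 donor and 1483 CPM in vehicle donor cells, with none of the 9 at 0. Retnlg stood at 17.8, 24.7, 7.20 and 9.14 CPM in the same order. There were 22.1 UMIs of Mmp8 for each UMI of Retnlg in RvD1 donor classical monocyte-like cells and 3.46 in those of vehicle donor cells, against 0.102 and 0.0651 in the neutrophils of those libraries. Camp, Ltf and Ngp stayed at or below 1.14 CPM in these cells in all 4 libraries.

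**Figure D5:**
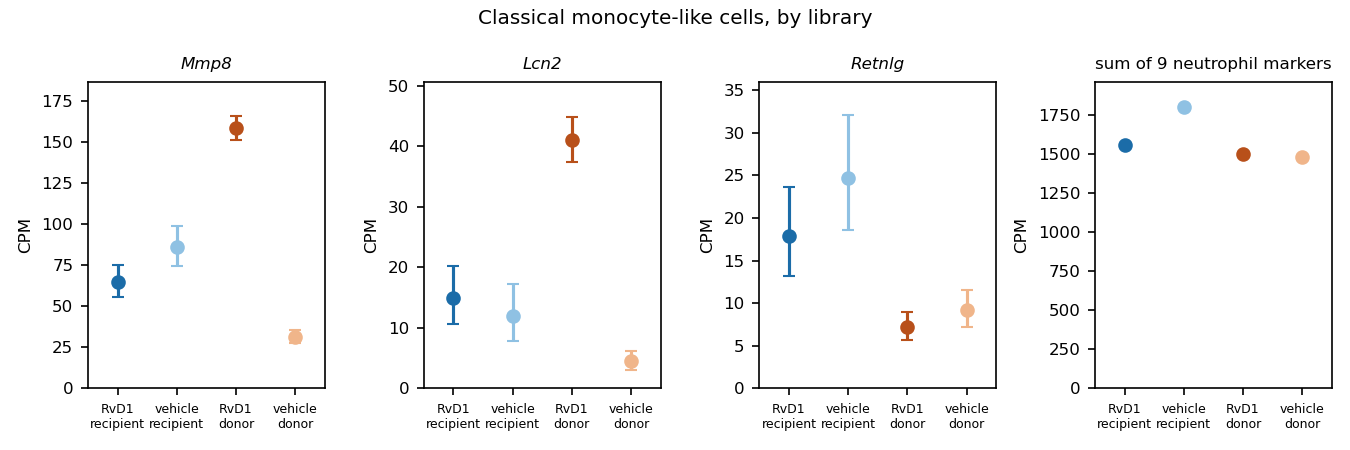
Mmp8, Lcn2 and Retnlg in classical monocyte-like cells of each library, in CPM with 95% Poisson intervals of counting error, beside the summed level of 9 neutrophil markers in the same cells, drawn with no interval. Mmp8 (159 CPM) and Lcn2 (41.0 CPM) are highest in the RvD1 donor library, where Retnlg and the marker sum are not.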

How the data were processed

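Leukocytes of 4 libraries were measured by droplet single-cell RNA sequencing. The authors deposited raw UMI counts per gene and cell, made per the file headers with Cell Ranger 7.0.1 (RvD1) and 6.1.1 (vehicle); the genome build mm10 and Seurat 4.0.0 are named in the submitters' processing notes. The libraries held 5195 to 7836 barcodes and 42199775 to 61294707 UMIs.

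Cells were kept at 200 or more genes and no more than 10% of UMIs from mitochondrial genes, and Scrublet doublets (expected at 0.8% per 1000 cells) were removed. Cells were clustered without the 9 genes in scanpy 1.11.5 with leidenalg 0.10.2 (2000 variable genes per library, 30 principal components, 15 neighbours, resolution 1), which gave 27 clusters. Clusters were named from marker lists, by a scoring rule that was fixed with the clusters in view, and each name means cells like that type. Cells passing the neutrophil gate were kept out of the other classes.

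UMIs were summed per class and library. Ratios have exact binomial, levels exact Poisson and shares exact Clopper-Pearson intervals at 95% (scipy 1.17.1, numpy 2.4.6, pandas 2.3.3, Python 3.11.15); a count of 0 allows up to 3 counts. Cells are not replicates, and these intervals cover counting error only. Ratios were given for genes with at least 100 UMIs over 2 libraries. Detection and likeness used cells thinned to 1000 UMIs. The interval code was tested on simulated data.

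The members and lists were chosen with earlier results of these data known. All 9 genes are named; from each list up to 4 genes could be named, by mean absolute log2 ratio over the 4 comparisons, and for each member the 3 genes with the highest mean r whose lowest r was at least 0.1.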

Additional observations from a re-analysis of the deposited data

Results flagged for a closer look

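Ltf, Camp and Ngp had opposite directions between RvD1 and vehicle in recipient and donor neutrophils. The log2 ratio of RvD1 over vehicle was 1.44 in recipient and -1.16 in donor neutrophils for Ltf. It was 2.83 in recipient and -0.97 in donor neutrophils for Camp, and 0.24 in recipient and -0.96 in donor neutrophils for Ngp. Without the granule-rich cells, of which 3 were RvD1 recipient cells, Ngp was at -0.85 in recipient and 0.10 in donor neutrophils and Ltf at 0.09 in recipient and -0.33 in donor neutrophils. Camp was then at -0.62 in donor neutrophils and had too few UMIs for a ratio in recipient neutrophils (19 with RvD1 and 74 with vehicle). Retnlg had the opposite pair of signs, -0.64 in recipient and 0.45 in donor neutrophils. Mmp8 in classical monocyte-like cells had -0.41 in recipient and 2.33 in donor cells. What drew attention to each was the difference in direction between recipient and donor cells, which was not tested, since each group is 1 library.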

How the results depend on the processing

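No paired analysis was possible because each group is 1 library. Of 12 alternatives for each ratio in neutrophils, Mmp8, Retnlg and Lcn2 kept their sign in 12 in all 4 comparisons; the ratio of RvD1 over vehicle ran from 0.90 to 1.22 for Mmp8 in donor cells, and for Retnlg from 0.22 to 0.65 in donor and from -0.73 to -0.64 in recipient cells. Lcn2 ran from 0.10 to 1.21 for recipient over donor cells with vehicle. Mmp9 in donor cells kept its sign in 8 of 12 (-0.16 to 0.12). For RvD1 over vehicle in recipient cells, Camp kept its sign in 10 of 12 (-1.54 to 3.47), Ltf in 11 (-0.029 to 1.57) and Ngp in 9 (-0.90 to 0.46); in donor cells, Camp ran from -3.82 to -0.54 and Ltf from -1.44 to -0.33 with their sign kept in 12, and Ngp from -2.59 to 0.10 with it kept in 11. In classical monocyte-like donor cells Mmp8 ran from 2.30 to 2.38 and Lcn2 from 3.19 to 3.91 over 3 alternatives. With each gene's richest 1% of neutrophils left out, the ratio of RvD1 over vehicle in recipient cells turned to -0.029 for Ltf and -0.32 for Camp, and that of recipient over donor cells with RvD1 to 0.070 for Ngp. Without the granule-rich cells, a choice made after seeing the data, the ratio of RvD1 over vehicle turned to 0.10 for Ngp in donor and -1.54 for Camp in recipient cells, and that of recipient over donor cells with vehicle to 0.78 for Ngp; these reversals rest on the few cells removed, and the Camp ratio on 93 UMIs, under the minimum of 100. Members past 1.5-fold then numbered 3 higher and 1 lower in donor cells and 0 higher and 3 lower in recipient cells, 1 lower for recipient over donor cells with RvD1 and 5 higher with vehicle. These counts include Camp below that minimum, as 1 of the 3 lower in recipient cells and, on 78 UMIs, as the 1 lower with RvD1, and no share of all genes was computed beside them. Leaving out the richest 1% gave 3 higher in donor cells and 0 higher and 2 lower in recipient cells, and the mean over cells gave 2 higher in donor cells.

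Counts of all genes past 1.5-fold moved as follows, and the cause was not tested. For recipient over donor cells with vehicle, the lower genes numbered 1010 with S100a8 and S100a9 at 2%, 798 with the gate within neutrophil clusters, 813 over those clusters with no gate, 893 with median scaling and 1315 with at least 200 UMIs; the higher genes numbered 738 with median scaling and 416 with at least 50 UMIs. For recipient over donor cells with RvD1, the lower genes numbered 572 with the gate within clusters, 599 with no gate, 796 with median scaling, 1865 with at least 50 UMIs and 763 with at least 200, and the higher genes 513 with median scaling. In donor cells, RvD1 over vehicle, 684 were higher and 977 lower with the gate within clusters, and 719 were higher with no gate. In recipient cells 1023 were higher with doublets kept. At 2-fold in place of 1.5-fold, the higher and lower genes numbered 107 and 534 in recipient cells, 91 and 558 in donor cells, 50 and 372 for recipient over donor cells with RvD1 and 76 and 610 with vehicle. Among the log2 ratios of single genes, 194 alternative values stayed within the counting interval of the main value and 148 moved beyond it. A further 6 changed the sign of a ratio that was past 1.5-fold. Among the other values, 538 of levels, detection, co-detection and concentration stayed within their counting interval and 126 moved beyond it. Mpo and Elane had too few UMIs for a ratio.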
